A study of Mus musculus with 36 samples.

Results

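The comparison described here is the effect of Gpt2 genotype in the brain libraries that carry little cerebellar RNA. Of the 36 libraries in the series, 27 were used: 16 from Gpt2 knockout (KO) mice and 11 from wild-type (WT) mice. By treatment these were 7 KO libraries with dm-αKG (KO-aKG), 9 KO libraries with vehicle (KO-Veh), 4 WT libraries with dm-αKG (WT-aKG) and 7 WT libraries with vehicle (WT-Veh). The rule leaves out 9 libraries that were high in cerebellar marker genes, 2 KO (KO-Veh-7 and KO-aKG-7) and 7 WT (WT-Veh-1, 6 and 9 and WT-aKG-3, 6, 7 and 8). KO and WT were compared with treatment as a covariate over all 15322 genes that passed a filter on low counts. The libraries were selected on the measured levels of cerebellar marker genes, so those genes are given below as a description only.

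Mice were injected intraperitoneally with vehicle or with dm-αKG, the cell-permeable dimethyl ester of α-ketoglutarate, at 600 mg per kg, and tissue was taken on postnatal day 19. RNA came from 10 mg pieces of brain and was read as polyadenylated RNA primed from the 3′ end. The sources used here do not give the brain region of each piece, the sex and strain of the mice, the number of injections or the deleted part of Gpt2. The labels number the libraries within a group but do not say that each came from a separate animal, so the p-values measure the spread between these libraries.

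Gpt2 encodes the mitochondrial alanine transaminase, which moves an amino group between glutamate and pyruvate and so interconverts alanine and α-ketoglutarate. In people, loss of GPT2 activity causes a disorder of brain development with microcephaly and motor signs. Cells that lack amino acids, or that are stressed in the endoplasmic reticulum or mitochondria, phosphorylate the translation factor eIF2α, which lets the transcription factor ATF4 be made and raises genes for amino acid synthesis, uptake and tRNA charging. That programme is called the integrated stress response.

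The score of the cerebellum list is the mean log2 CPM (counts scaled to a common library size) over its 23 tested genes. It was 2.92 ± 0.81 in the 16 KO libraries and 3.02 ± 0.60 in the 11 WT libraries (SD), and 6.60 ± 0.78 in the 9 that were left out. The highest score among the libraries used was 4.23 in KO-aKG-6, and the lowest among those left out was 4.98 in WT-aKG-8. Scores of other regions differed between single libraries within both genotypes. The cortex score averaged 5.03 ± 0.82 in KO libraries and 5.28 ± 0.58 in WT libraries, the striatum score 3.79 ± 1.02 in KO and 3.43 ± 1.14 in WT, and the hypothalamus score 2.07 ± 1.51 in KO and 1.35 ± 1.2 in WT. The cortex score was lowest in KO-aKG-8 (3.11), KO-aKG-5 (3.30), KO-aKG-6 (4.42) and WT-Veh-2 (3.93). Library totals ran from 5.77 to 12.1 M counts in KO and from 7.52 M upwards in WT, with medians of 11.2 M in KO and 11.8 M in WT. Mitochondrial ribosomal RNA took 14.1% to 29.3% of the counts in KO and 17.9% to 29.8% in WT. Xist exceeded the Y-linked Ddx3y in 6 of 16 KO libraries and 3 of 11 WT libraries.

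**Figure D1:**
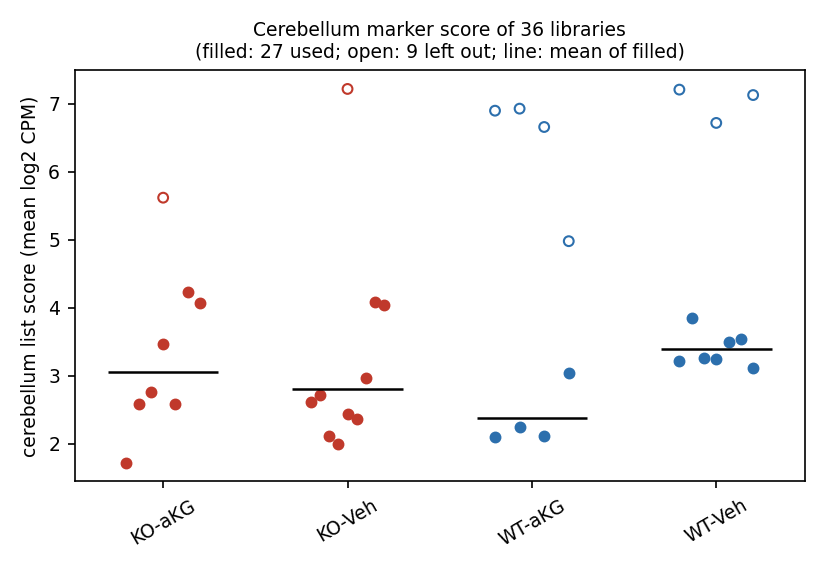
Cerebellum list score (mean log2 CPM, vertical axis) of each of the 36 libraries by group. Filled points are the 27 libraries used, open points the 9 left out, and lines the means of the filled points; filled points reach 4.23 and open points start at 4.98.

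Gpt2 itself (chr8:85492576-85527560, plus strand, GRCm38) was low in every KO library. The lowest, median and highest KO levels were 0.878, 2.12 and 3.30 CPM, against 21.9, 31.6 and 38.9 CPM in WT. The groups did not overlap, and behind the levels stood 10 to 38 counts per KO library and 211 to 465 counts per WT library. Gpt2 fell by a log2 fold change of -3.87 (SE 0.15, edgeR quasi-likelihood test, Benjamini-Hochberg adjusted p = 2.26e-17). Which part of the transcript the remaining KO counts come from was not analysed here.

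Besides the loss of Gpt2, 33 of 44 targets of the integrated stress response were raised in KO brain, 19 of 25 genes of cholesterol synthesis were lowered, and Cox6a2, Mt3 and Slc7a3 rose with log2 fold changes above 2. At an adjusted p under 0.05, 1744 of 15322 genes were called, which is 11.4%. Of these, 885 (5.78% of genes tested) were higher in KO and 859 (5.61%) were lower. Most changes were small: 58 called genes differed by more than 2-fold, 47 higher and 11 lower, and the median absolute log2 fold change of called genes was 0.37. Over all genes the median log2 fold change was 0.004. On the CPM table without between-library scaling, limma called 1043 genes, 932 higher and 111 lower, and the median log2 fold change of all genes was 0.112. Without the 4 libraries of lowest cortex score, 1546 genes were called.

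**Figure D2:**
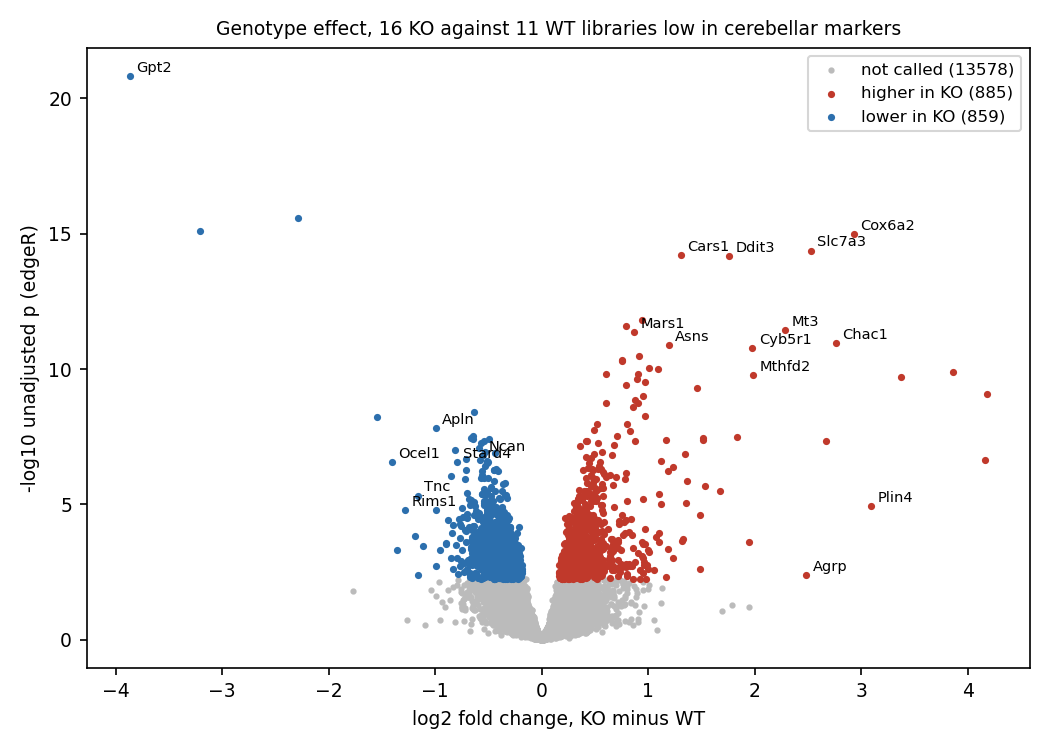
Log2 fold change of each of 15322 genes, KO minus WT (horizontal axis), against the -log10 unadjusted p of edgeR (vertical axis). Red points are the 885 genes called higher in KO, blue points the 859 called lower and grey points the rest; Gpt2 stands farthest to the lower side at -3.87.

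KO and WT libraries did not overlap at all for 38 genes, 0.248% of those tested: in 32 every KO library lay above every WT library, (0.209%), and in 6 every KO library lay below (0.0392%). Those 32 included Cox6a2, Mt3, Slc7a3, Chac1 and Ddit3, and the 6 included Gpt2, the brain proteoglycan gene Ncan and the signalling regulator gene Arhgdia.

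Cox6a2 (chr7:128205435-128206387, minus strand) encodes the heart and muscle isoform of a cytochrome c oxidase subunit, which in mouse brain is found in parvalbumin interneurons. Its lowest, median and highest levels were 28.1, 68.2 and 131 CPM in KO and 4.94, 9.32 and 15 CPM in WT. The KO libraries all lay above the WT libraries, and the gene rose by a log2 fold change of 2.93 (SE 0.18, edgeR adjusted p = 3.86e-12). Of the other interneuron genes listed, the parvalbumin gene Pvalb itself had a log2 fold change of 0.33 and was not called.

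Mt3 (chr8:94152607-94154146, plus strand) encodes metallothionein 3, the zinc- and copper-binding metallothionein of the nervous system. Its lowest, median and highest levels were 261, 530 and 739 CPM in KO and 58.5, 90.1 and 240 CPM in WT. Only WT-Veh-3 came near the KO range, and the log2 fold change was 2.28 (SE 0.20, edgeR adjusted p = 5.51e-09). The other metallothionein genes tested, Mt1 and Mt2, had log2 fold changes of 0.16 and 0.27 and were not called. Mt3 lies 8.66 Mb from Gpt2, start to start.

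Slc7a3 (chrX:101079210-101086020, minus strand) encodes a transporter of cationic amino acids such as arginine. In KO it ran from 23.0 over a median of 39.2 to 54.2 CPM, and in WT from 3.64 over 7.36 to 11.5 CPM. The groups did not overlap, the lowest KO library lying above the highest WT library. The log2 fold change was 2.53 (SE 0.17, edgeR adjusted p = 1.28e-11).

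**Figure D3:**
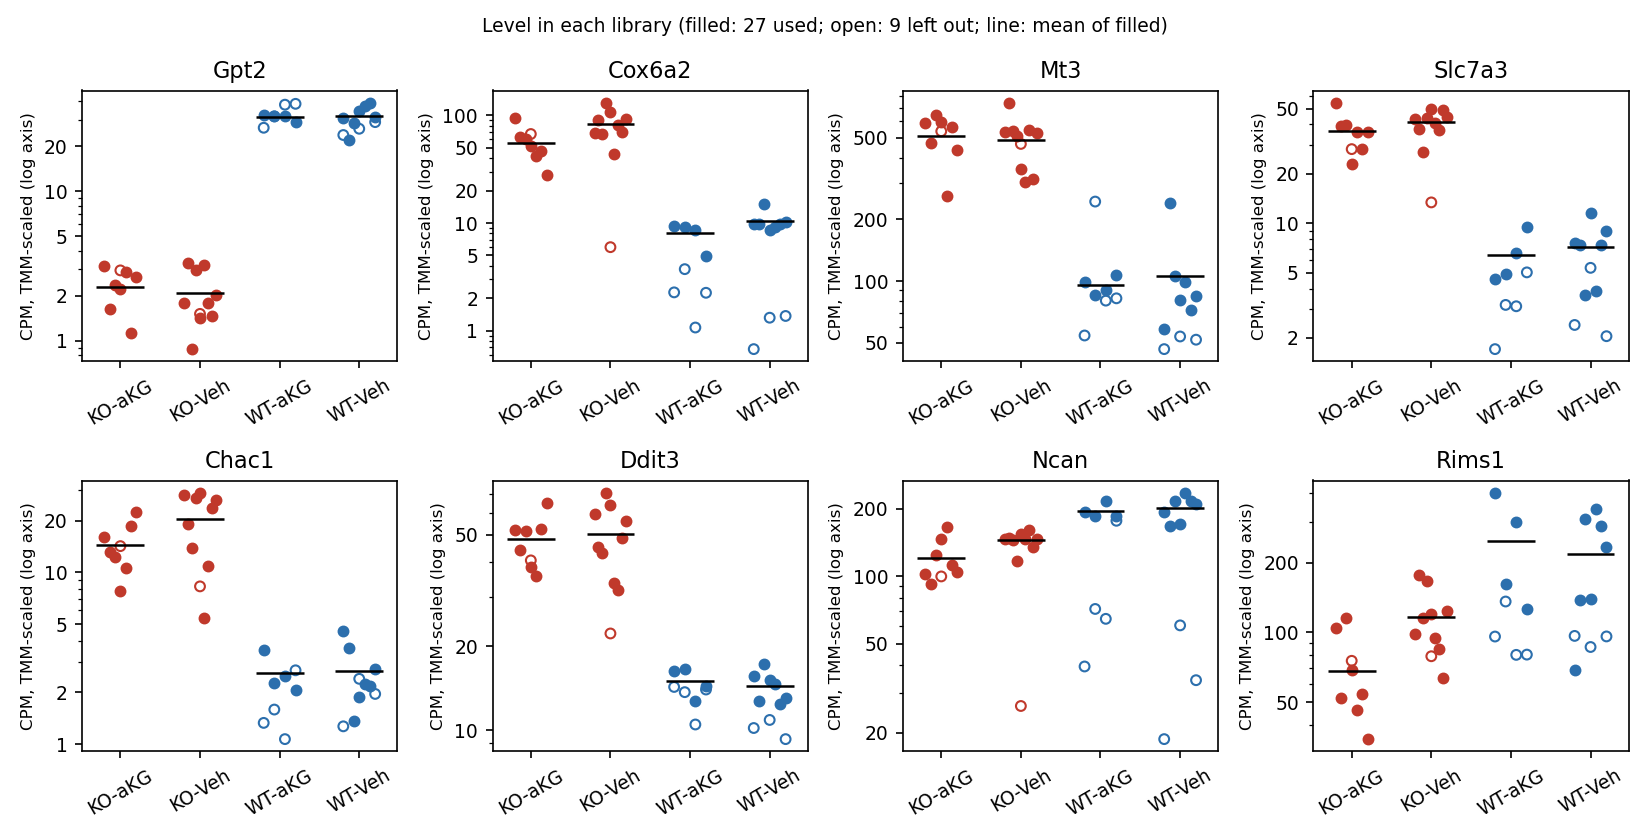
Level of 8 genes in each library (TMM-scaled CPM, log axis) by group. Filled points are the 27 libraries used, open points the 9 left out and lines the means of the filled points; Cox6a2, Mt3, Slc7a3, Chac1 and Ddit3 are higher and Gpt2 and Ncan lower in every filled KO point than in every filled WT point, while Rims1 overlaps.

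Of 44 tested targets of ATF4, 33 rose in KO (75%) and none fell, against 5.78% and 5.61% of all genes, and their median log2 fold change was 0.87. Leaving out any 1 library gave 29 to 36 higher and 0 lower. In 16 of the 44, every KO library lay above every WT library, which held for 32 of all 15322 genes (0.209%). The list shares 4 tRNA synthetases and several transporters with lists below, and it was drawn up with earlier results of these data known.

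Chac1, a γ-glutamyl cyclotransferase that breaks down glutathione, had lowest, median and highest levels of 5.43, 17.4 and 29.0 CPM in KO and 1.37, 2.26 and 4.58 CPM in WT. It rose by a log2 fold change of 2.76 (SE 0.25, edgeR adjusted p = 1.38e-08). Ddit3, which encodes the transcription factor CHOP, ran from 31.7 over 50.1 to 70.6 CPM in KO and from 12.4 over 14.6 to 17.3 CPM in WT. Its WT libraries were close together and its KO libraries were more spread, and the log2 fold change was 1.76 (SE 0.12, edgeR adjusted p = 1.42e-11). Trib3, a pseudokinase that binds ATF4 and CHOP, rose by a log2 fold change of 2.67 (SE 0.36) at low levels, with means of 1.5 CPM in KO and 0.229 CPM in WT.

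Of the transcription factor genes on the list, Jdp2 (0.46) and Nupr1 (0.02) were not called, and several others rose. Atf4 mRNA averaged 105 CPM in KO and 56.6 CPM in WT (log2 fold change 0.90, SE 0.09), Atf5 45.3 CPM in KO and 21.3 CPM in WT (1.09, SE 0.11), and Cebpb 43.4 CPM in KO and 25.6 CPM in WT (0.78, SE 0.17). Secreted stress factors of the list rose at low levels: Gdf15 averaged 1.43 ± 0.752 CPM in KO and 0.446 ± 0.194 CPM in WT (1.68, SE 0.29), and Stc2, stanniocalcin 2, rose by 1.83 (SE 0.24). Cyb5r1, a cytochrome b5 reductase, averaged 27.6 ± 9.96 CPM in KO and 7.06 ± 1.27 CPM in WT (1.98, SE 0.18, edgeR adjusted p = 1.79e-08).

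The 11 targets that did not pass the test included the first enzymes of serine synthesis, Phgdh (log2 fold change 0.13) and Psat1 (0.23), the cystine transporter gene Slc7a11 (-0.04), and Ppp1r15a (0.34), whose product restores translation by guiding eIF2α dephosphorylation. Phgdh averaged 20.6 CPM in KO and 18.7 CPM in WT.

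The 250 bases before the RefSeq start of genes were searched for the C/EBP-ATF response element, the composite site that ATF4 binds as a dimer, spelled TGATGNAA on either strand. It was present in 10 of 36 ATF4 targets that had a promoter entry (27.8%), against 251 of 10872 genes tested (2.31%). Among the targets it was found in 6 of 26 that were called and 4 of 10 that were not. Promoters of 4 called genes with the element follow as an illustration, from RefSeq (GRCm38.p6), 5′ to 3′ on the gene's strand, with the element in capitals. A match only shows that these letters are present.
Chac1, chr2:119350992-119351241, plus strand: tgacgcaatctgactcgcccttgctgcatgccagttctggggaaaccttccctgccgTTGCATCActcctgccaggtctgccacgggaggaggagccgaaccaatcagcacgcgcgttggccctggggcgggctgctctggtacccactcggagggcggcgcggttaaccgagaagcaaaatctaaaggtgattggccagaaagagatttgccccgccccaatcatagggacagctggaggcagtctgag
Herpud1, chr8:94386179-94386428, plus strand: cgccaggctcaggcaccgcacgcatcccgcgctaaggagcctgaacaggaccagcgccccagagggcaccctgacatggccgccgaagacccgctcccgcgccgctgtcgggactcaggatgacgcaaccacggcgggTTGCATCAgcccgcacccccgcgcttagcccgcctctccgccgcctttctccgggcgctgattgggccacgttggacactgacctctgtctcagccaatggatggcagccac
Pck2, chr14:55540016-55540265, plus strand: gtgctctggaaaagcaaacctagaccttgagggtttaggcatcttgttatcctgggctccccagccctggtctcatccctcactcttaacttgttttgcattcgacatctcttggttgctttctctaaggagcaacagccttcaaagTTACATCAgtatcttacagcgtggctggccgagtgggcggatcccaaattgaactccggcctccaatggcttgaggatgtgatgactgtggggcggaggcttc
Asns, chr6:7693210-7693459, minus strand: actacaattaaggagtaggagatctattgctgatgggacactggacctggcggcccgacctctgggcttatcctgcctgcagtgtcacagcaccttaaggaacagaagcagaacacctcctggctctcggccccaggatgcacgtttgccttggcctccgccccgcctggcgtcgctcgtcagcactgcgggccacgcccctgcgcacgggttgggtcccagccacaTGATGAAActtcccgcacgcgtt
Herpud1, a membrane protein of the endoplasmic reticulum that takes part in protein disposal, averaged 60.7 ± 12.5 CPM in KO and 31.2 ± 4.54 CPM in WT (log2 fold change 0.97, SE 0.10, edgeR adjusted p = 1.78e-07). Pck2, the mitochondrial phosphoenolpyruvate carboxykinase, averaged 17.5 CPM in KO and 8.90 CPM in WT (0.97, SE 0.12).

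Aminoacyl-tRNA synthetases load tRNAs with their amino acids. Of 20 cytosolic members, 13 rose (65%, against 5.78% of all genes), none fell and 7 were not called (median log2 fold change 0.57). The count that rose was 13 whichever library was left out. None of 17 mitochondrial synthetases was called in either direction (median 0.06). The cysteine enzyme Cars1 ran from 17.9 over 23.0 to 27.5 CPM in KO and from 6.45 over 9.54 to 11.9 CPM in WT, with no overlap (1.31, SE 0.09, edgeR adjusted p = 1.42e-11). Nars1 for asparagine averaged 91.2 ± 17.9 CPM in KO and 46.0 ± 7.71 CPM in WT (1.01, SE 0.10). The enzymes for lysine (Kars1, -0.04), glutamine (Qars1, 0.06), tryptophan (Wars1, 0.13) and arginine (Rars1, 0.16), and both subunits for phenylalanine (Farsa, 0.00, and Farsb, 0.16), were not called.

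Amino acid transporters and enzymes changed gene by gene. Of 26 plasma membrane transporters, 6 rose (23.1%, against 5.78% of all genes) and 2 fell (7.69%, near the 5.61% of all genes). Beside Slc7a3, those that rose were the cationic transporter Slc7a1 (0.95, SE 0.11), the large neutral transporter Slc7a5 (0.86, SE 0.10) with its partner Slc3a2 (0.60, SE 0.10), the alanine and serine transporter Slc1a4 (0.71, SE 0.09) and the glutamine and alanine transporter Slc38a2 (0.59, SE 0.12). Slc36a1, which exports small amino acids from lysosomes, fell by a log2 fold change of -0.56 (SE 0.10). Slc38a3, the glutamine transporter of astrocytes, fell by -0.32, a call that ended without WT-Veh-4, WT-Veh-7, WT-aKG-4 or WT-aKG-5 (edgeR adjusted p up to 0.0571).

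Among 22 enzymes of serine and one-carbon metabolism, 5 rose (22.7%, against 5.78% of all genes) and none fell. Mthfd2, of the mitochondrial folate pathway, ran from 10.5 over 19.1 to 33.5 CPM in KO and from 3.10 over 4.17 to 12.4 CPM in WT. The single WT library within the KO range was WT-Veh-2, and the log2 fold change was 1.99 (SE 0.20, edgeR adjusted p = 1.15e-07). Psph, which completes the synthesis of serine, rose by 1.16 (SE 0.16). Shmt2 (0.88, SE 0.10), Aldh1l2 (0.85) and Mthfd1l (0.63, SE 0.17), which act in the mitochondrial folate pathway, rose as well.

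Of 21 transaminases and related enzymes, 3 rose (14.3%, against 5.78% of all genes) and 4 fell (19%, against 5.61%). The knocked-out gene Gpt2 was 1 of the 4. On the unscaled CPM values 4 rose and 1 fell. Asns, which makes asparagine, averaged 88.9 ± 18.5 CPM in KO and 39.3 ± 6.21 CPM in WT (1.19, SE 0.11). Aldh18a1, which starts proline synthesis from glutamate, rose by 0.90 (SE 0.09) and the branched-chain transaminase Bcat1 by 0.76 (SE 0.17). Glutamate dehydrogenase, Glud1, fell by a log2 fold change of -0.36, and the glutaminase Gls2 by -0.36. The cytosolic alanine transaminase Gpt (-0.18) and the aspartate transaminases Got1 (-0.01) and Got2 (-0.04) were not called.

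Cholesterol synthesis was lower in KO. Of 25 tested genes 19 fell (76%, against 5.61% of all genes) and none rose, with a median log2 fold change of -0.54. Leaving out any 1 library gave 17 to 21 that fell. On the unscaled CPM table the median was -0.38 and 4 fell by limma. Hmgcs1, which makes the precursor HMG-CoA, averaged 104 CPM in KO and 173 CPM in WT (-0.74, SE 0.15, edgeR adjusted p = 0.00175). Srebf2, the transcription factor that drives the pathway, fell by -0.78 (SE 0.16). Others that fell include the mevalonate kinase Mvk (11.6 ± 1.61 CPM in KO and 17.3 ± 2.91 CPM in WT, -0.58, SE 0.09), squalene synthase Fdft1 (-0.45, SE 0.09) and lanosterol synthase Lss (-0.62, SE 0.12). The intracellular sterol carrier Stard4 fell by -0.80 (SE 0.12, edgeR adjusted p = 5.39e-05). Members that were not called included Idi1 (-0.49), Msmo1 (-0.37), Hsd17b7 (-0.34) and Ebp (0.20).

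A sterol regulatory element of the spelling TCACNCCAC, on either strand, was found in the same 250-base window of 1 of 17 cholesterol genes with a promoter entry, and in 135 of 10872 genes tested (1.24%). The gene was Hmgcs1, whose promoter is shown from RefSeq (GRCm38.p6) with the element in capitals.
Hmgcs1, chr13:119690101-119690350, plus strand: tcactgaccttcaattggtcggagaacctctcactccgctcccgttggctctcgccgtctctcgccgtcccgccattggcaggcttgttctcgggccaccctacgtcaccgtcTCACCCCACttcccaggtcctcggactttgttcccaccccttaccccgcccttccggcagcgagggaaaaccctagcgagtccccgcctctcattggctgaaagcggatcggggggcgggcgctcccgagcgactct

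Of 16 genes of fatty acid synthesis, 6 fell (37.5%, against 5.61% of all genes) and none rose (median -0.25). Among the 6 was fatty acid synthase Fasn, with 65.2 ± 9.73 CPM in KO and 89.4 ± 10.3 CPM in WT (-0.44, SE 0.08). The desaturases Scd1 (-0.60, SE 0.16) and Fads1 (-0.45, SE 0.11) fell too, as did Acss2, which makes acetyl-CoA from acetate (-0.47, SE 0.12). With 5 region scores as covariates 11 fell, and on the unscaled CPM values the count was 1.

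In glycolysis 5 of 23 genes fell (21.7%, against 5.61% of all genes) and 1 rose (4.35%, against 5.78%), with a median of -0.18. Those that fell were Eno1 (-0.53, SE 0.08), Aldoa (-0.45, SE 0.07), Pkm (-0.34, SE 0.09), Pgk1 and Gpi1 (-0.23 each), while the glucose transporter Slc2a1 rose by 0.41 (SE 0.11). On the unscaled CPM table none of the 23 fell, without KO-Veh-9 the count that fell was 8, and Eno1 and Aldoa have near-identical copies in the genome, so their counts are uncertain. Of 33 genes of the TCA cycle and pyruvate entry, 2 rose and 1 fell, so 3 of 33 were called, near the background of 11.4%. Leaving out 1 library gave 0 to 5 higher and 1 to 5 lower: 0 rose without WT-Veh-7, WT-Veh-10, WT-aKG-1 or KO-Veh-10, 5 rose without KO-Veh-9, and 5 fell without KO-aKG-8. The gene that fell was that of citrate synthase, Cs, with 119 ± 12.5 CPM in KO and 150 ± 16 CPM in WT (-0.33, SE 0.07, edgeR adjusted p = 0.00153), which was not called on the unscaled CPM table (limma adjusted p = 0.26). Pyruvate carboxylase Pcx, which refills the cycle, had a log2 fold change of -0.10 and was not called.

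Of 47 nuclear oxidative phosphorylation subunits, 7 rose (14.9%) and 1 fell (2.13%), against 5.78% and 5.61% of all genes. Apart from Cox6a2 the changes were small: the complex I subunits Ndufa9 (0.34, SE 0.07), Ndufv2 (0.28), Ndufb5 (0.23) and Ndufs3 (0.19) rose and Ndufv1 fell by -0.19 (SE 0.05). Without the 4 libraries of lowest cortex score, 4 rose and 2 fell.

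Glucocorticoid-induced genes were higher in KO, with 10 of 23 raised (43.5%, against 5.78% of all genes) and none lowered. Their median log2 fold change was 0.40. Fkbp5, a co-chaperone that dampens the glucocorticoid receptor, ran from 8.04 over 24.4 to 68.8 CPM in KO and from 8.49 over 14.2 to 18.6 CPM in WT. The groups overlapped, the KO libraries being far more spread, and the log2 fold change was 1.10 (SE 0.26, edgeR adjusted p = 0.00709). Tsc22d3, the leucine zipper protein GILZ, averaged 216 ± 72.5 CPM in KO and 131 ± 26.8 CPM in WT (0.71, SE 0.17), and the kinase gene Sgk1 rose by 0.54 (SE 0.14). Plin4, a lipid droplet coat protein, rose by 3.09 (SE 0.58) at low levels, 3.70 ± 4.08 CPM in KO and 0.437 ± 0.275 CPM in WT. Other members such as Per1 (0.08) and Dusp1 (0.40) were not called.

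In a list of p53 targets 6 of 18 rose (33.3%, against 5.78% of all genes) and 1 fell (5.56%, near the 5.61% of all genes). The 6 were Sesn2 (1.51, SE 0.20), Gdf15, Cdkn1a, Pmaip1 (0.84, SE 0.17), Bbc3 (0.73, SE 0.15) and Trp53inp1 (0.48), and Zmat3 fell by -0.42. Sesn2 and Gdf15 are also on the ATF4 list and Cdkn1a on the glucocorticoid list. Cdkn1a, the cell cycle inhibitor p21, averaged 49.5 ± 19.1 CPM in KO and 26.0 ± 5.48 CPM in WT (0.95, SE 0.17, edgeR adjusted p = 0.000579). The p53 targets Mdm2 (0.17), Ccng1 (0.00), Bax (-0.16) and Phlda3 (-0.08) were not called.

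Called members of other stress programmes are given against 5.78% of all genes higher and 5.61% lower. Of 22 endoplasmic reticulum chaperones and unfolded protein response genes, 2 rose (9.09%), Herpud1 and the oxidoreductase gene Ero1a (0.37), and 1 fell (4.55%). The gene that fell was Edem1 (-0.29), which takes part in disposal of misfolded glycoproteins. The call of Ero1a ended without WT-Veh-7, WT-Veh-8, WT-aKG-1 or WT-aKG-4 (edgeR adjusted p up to 0.0605). The chaperone gene Hspa5 averaged 166 CPM in KO and 164 CPM in WT (-0.01). None of 14 cytosolic heat shock genes was called, and of 19 NRF2 and glutathione genes only glutathione reductase Gsr was, falling by -0.41 (SE 0.08). In mitochondria the chaperone Hspa9 rose by 0.52 (SE 0.07, edgeR adjusted p = 1.42e-05), while Hspd1 (0.04) and Lonp1 (0.12) were not called.

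Among 16 inhibitors of mTORC1, the kinase complex that matches growth to amino acids, 3 rose (18.8%) and 1 fell (6.25%). Of all genes 5.78% rose and 5.61% fell. Those that rose were Sesn2, a leucine sensor, Castor1, an arginine sensor (0.81, SE 0.18), and Eif4ebp1, a repressor of translation (1.12, SE 0.21). Castor2, the paralogue of Castor1, fell by -0.40 (edgeR adjusted p = 0.0341), a call that ended without WT-Veh-7, WT-Veh-8, WT-aKG-1, WT-aKG-2, KO-Veh-6, KO-Veh-8 or KO-aKG-2. Of 35 dioxygenases that use α-ketoglutarate as a cosubstrate, 3 rose and 2 fell, which is 14.3% against 11.4% of all genes. Leaving out 1 library gave 1 to 3 higher and 0 to 3 lower: 1 rose without WT-Veh-7, WT-aKG-2 or WT-aKG-5, 3 fell without KO-aKG-3, and none fell without WT-Veh-7, WT-aKG-1, WT-aKG-2, KO-Veh-6, KO-Veh-8, KO-Veh-10 or KO-aKG-2. On the unscaled CPM values 1 rose and none fell. The tRNA and DNA demethylase Alkbh1 rose by 0.38 (SE 0.10, edgeR adjusted p = 0.0163), and without the 4 libraries of lowest cortex score it was not called (adjusted p = 0.0664). None of 49 cytosolic ribosomal protein genes was called (median 0.12), whereas limma on the unscaled CPM table called 26 of them higher.

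**Figure D4:**
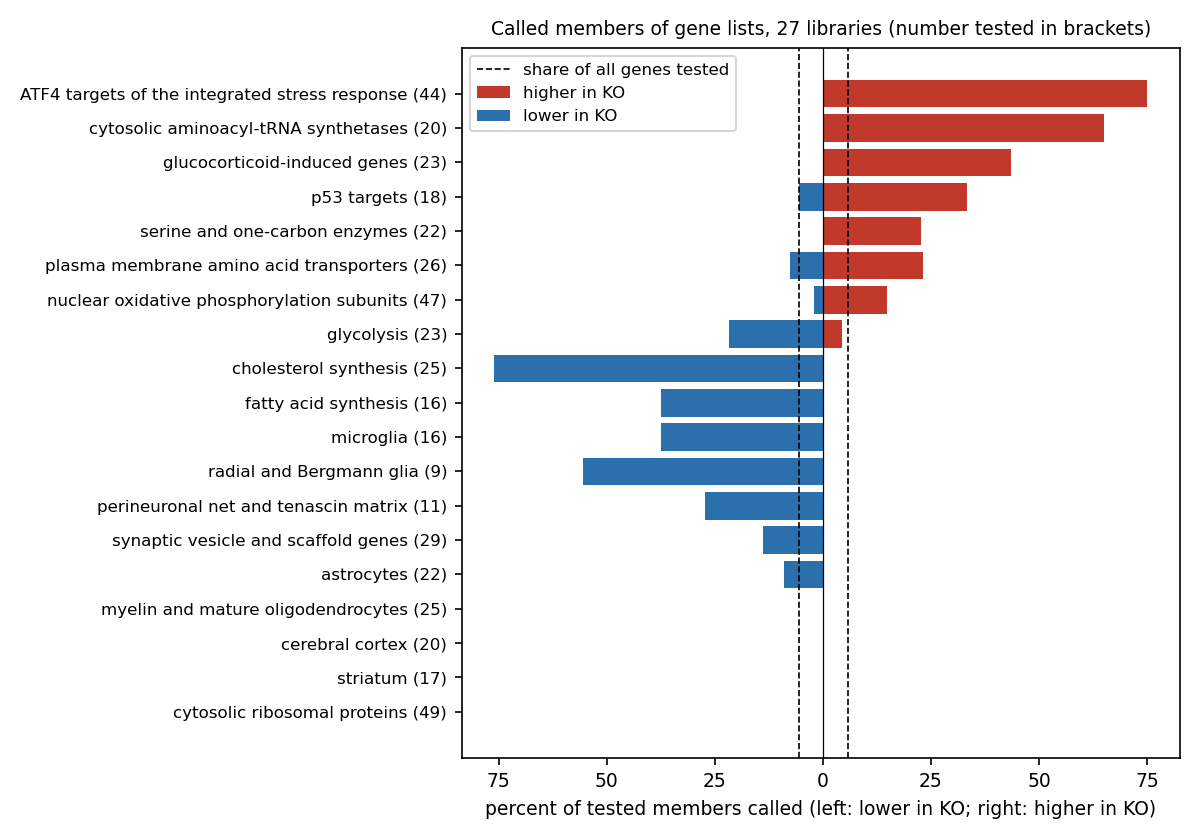
Share of tested members called higher (red, to the right) or lower (blue, to the left) in KO for 19 gene lists, in percent, with the number tested in brackets. Dashed lines mark the shares of all 15322 genes, 5.78% higher and 5.61% lower; 75% of ATF4 targets were higher and 76% of cholesterol synthesis genes were lower.

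Of 16 microglia genes, 6 fell in KO, none rose and 10 were not called (median -0.23), against 5.61% of all genes that fell. The growth factor receptor gene Csf1r averaged 23.4 CPM in KO and 29.4 CPM in WT (-0.33), and the fractalkine receptor gene Cx3cr1 ran from 10.2 over 17.8 to 24.0 CPM in KO and from 18.6 over 24.9 to 29.7 CPM in WT, with overlap (-0.44, SE 0.12, edgeR adjusted p = 0.0211). The integrin gene Itgam (-0.56), P2ry12 (-0.52), Aif1 (-0.53) and Tmem119 (-0.38) fell as well, and the complement genes C1qa (0.01), C1qb (0.02) and C1qc (-0.04) were not called. The count was 3 without WT-aKG-1, where the call of Tmem119 also ended (edgeR adjusted p = 0.066), 3 without the 4 libraries of lowest cortex score and 0 on the unscaled CPM table. In bulk tissue, fewer cells of a type and less RNA per cell cannot be told apart.

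Of 9 genes of radial and Bergmann glia, 5 fell (55.6%, against 5.61% of all genes), none rose and 4 were not called (median -0.33). On the unscaled CPM values 3 fell. The fatty acid binding protein gene Fabp7 averaged 154 ± 87.3 CPM in KO and 269 ± 89.7 CPM in WT (-0.85, SE 0.23, edgeR adjusted p = 0.0164). The extracellular matrix gene Tnc had 2.43 ± 1.04 CPM in KO and 5.41 ± 1.71 CPM in WT (-1.16, SE 0.21). The others were Hes5, a Notch effector (-0.71, SE 0.17), Nes (-0.56) and Sox2 (-0.33, SE 0.09). Of 22 astrocyte genes 2 fell (9.09%, against 5.61% of all genes), Id3 (-0.49, SE 0.12) and Mlc1 (-0.34, SE 0.10). The call of Mlc1 ended without WT-Veh-7 (edgeR adjusted p = 0.0507), and on the unscaled CPM table none of the 22 fell. The water channel gene Aqp4 had a log2 fold change of -0.61 without passing the test. Bergmann glia are cerebellar, and the cerebellum score averaged 2.92 in KO and 3.02 in WT. With the cerebellum score as a covariate, Fabp7, Tnc, Hes5 and Sox2 were still called. The libraries were selected on cerebellar markers, so this fit cannot decide the part of cerebellar RNA. In the left-out WT libraries Fabp7 averaged 576 CPM and Tnc 23.6 CPM, above the WT means given here. Hes5 averaged 4.04 CPM there and 21.4 CPM in WT-Veh, and Sox2 26.7 CPM there and 44.1 CPM in WT-Veh. The part of the cerebellum difference in these changes was not tested.

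The perineuronal matrix gene Ncan, neurocan, ran from 92.6 over 146 to 166 CPM in KO and from 167 over 193 to 236 CPM in WT. The groups touched without overlapping, and the log2 fold change was -0.56 (SE 0.08, edgeR adjusted p = 3.39e-05). Brevican, Bcan, another proteoglycan of the same matrix, fell by -0.30 (SE 0.08). In this list of matrix genes 3 of 11 fell (27.3%, against 5.61% of all genes) and none rose. The third was Tnc, which is also counted among the radial and Bergmann glia genes. Of 29 synaptic vesicle and scaffold genes 4 fell (13.8%, against 5.61% of all genes), a count that varied from 1 to 6 when single libraries were left out and was 1 on the unscaled CPM table. Rims1, an active zone scaffold, was called in every one of these fits, with 34.6, 96.4 and 177 CPM as lowest, median and highest in KO and 68.6, 234 and 401 CPM in WT (-1.28, SE 0.25, edgeR adjusted p = 0.00117).

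Of 19 immediate early genes 2 rose (10.5%, against 5.78% of all genes), and leaving out 1 library gave 1 to 3. The call of Fosb, an activity-induced transcription factor gene (0.85, edgeR adjusted p = 0.0493), ended on leaving out any of 21 of the 27 libraries. The other was the neurotrophin gene Bdnf, with 32.4 ± 11 CPM in KO and 20.9 ± 5.4 CPM in WT (0.66, SE 0.15, edgeR adjusted p = 0.00599). Of 17 interneuron markers and neuropeptides 2 rose (11.8%). Cort, which encodes the interneuron peptide cortistatin, rose, with 14.9 ± 7.91 CPM in KO and 6.29 ± 2.96 CPM in WT (1.23, SE 0.33, edgeR adjusted p = 0.0159). Calb1, the calcium buffer calbindin, had 0.38 in the 27 libraries, -0.67 in the 36 and -0.23 in the 9. It is a cerebellar marker on which the selection acts, with means of 252 CPM in KO and 250 CPM in WT among the left-out libraries, and it was not called without the treatment covariate (edgeR adjusted p = 0.0611).

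None of 25 myelin genes was called (median -0.12, and 0.21 on the unscaled CPM table). Their median was 0.91 in the dm-αKG libraries and -0.62 in the vehicle libraries, and the myelin score spread from 5.55 to 7.92 in KO and from 5.6 to 8.19 in WT. No gene of the mural cell, choroid plexus, interferon or blood lists was called, nor any of the cortex, striatum or thalamus lists. Of 16 hypothalamus genes 1 was called higher (6.25%, near the 5.78% of all genes). The label brain is met by high astrocyte scores, 7.52 ± 0.24 in KO and 7.68 ± 0.21 in WT. The called hypothalamus gene was Agrp, a feeding peptide, with 0.535, 2.40 and 79.9 CPM as lowest, median and highest in KO and 0.648, 1.09 and 11.8 CPM in WT. Its log2 fold change of 2.48 (SE 0.80, edgeR adjusted p = 0.0415) was 1.18 without KO-Veh-9 (adjusted p = 0.288), and the call ended on leaving out any of 13 libraries.

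Further genes among the 12 largest rises were Fibin, a secreted factor named in zebrafish fin development (1.53, SE 0.26), Trim66, a chromatin reader (1.46, SE 0.16), and the small nucleolar host gene Snhg16 (1.36, SE 0.22). Trim66 averaged 8.16 ± 2.19 CPM in KO and 2.95 ± 0.674 CPM in WT. Among genes under 5 CPM, which this ranking left out, the gene of the secreted peptide musclin, Ostn, averaged 4.23 CPM in KO and 0.213 CPM in WT (4.16, SE 0.61, edgeR adjusted p = 4.60e-05), and Hsd17b1, an estradiol-forming dehydrogenase, averaged 1.51 CPM in KO and 0.139 CPM in WT (3.37, SE 0.35). These 2 were chosen after their values were seen.

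Apart from Gpt2, the named genes with the largest falls included Ocel1 (-1.40, SE 0.21) and Rims1. Ocel1, an occludin domain gene, ran from 3.18 over 6.80 to 19.1 CPM in KO and from 8.10 over 21.6 to 33.6 CPM in WT. Others were Nav3, a microtubule-binding neuron navigator (-1.11, SE 0.27), the apelin gene Apln (-0.99, SE 0.13, edgeR adjusted p = 5.71e-06), the serotonin receptor gene Htr1a (-0.99, SE 0.19), the junctophilin gene Jph4 (-0.90, SE 0.22), the FGF receptor-like gene Fgfrl1 (-0.85, SE 0.14), the fenestrated-endothelium gene Plvap (-0.84, SE 0.19), Gpr153 (-0.83, SE 0.18) and Plekho2 (-0.81, SE 0.11). Apln averaged 8.08 ± 2.33 CPM in KO and 15.8 ± 4.07 CPM in WT. Jph4, Nav3 and Rims1 each had their lowest KO library below the lowest WT library and overlapped the WT libraries over part of the range. In the vehicle libraries alone none of these 3 was called (edgeR adjusted p = 0.16 for Jph4, 0.185 for Nav3 and 0.0911 for Rims1). Their log2 fold changes were -0.59, -0.69 and -0.89 with vehicle and -1.37, -1.73 and -1.86 with dm-αKG. In the left-out WT libraries they averaged 105, 33.4 and 96 CPM, and the part of region make-up was not tested.

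Genes called here and not when all 36 libraries are fitted are given with both values, since the fits share libraries. Ncan had a log2 fold change of -0.56 in the 27 and -0.22 in the 36 libraries (edgeR adjusted p = 0.589 in the 36). Arhgdia averaged 96.4 ± 10.4 CPM in KO and 137 ± 15 CPM in WT without overlap, and had -0.50 in the 27 and -0.26 in the 36. The rhomboid-like gene Rhbdl1 had -0.66 in the 27 and -0.38 in the 36, the small GTPase gene Dnajc27 -0.54 in the 27 and -0.28 in the 36, Snn (stannin) -0.44 in the 27 and -0.26 in the 36, and Ccdc107 0.66 in the 27 and 0.30 in the 36. They were picked as the 6 smallest p of this kind. The 27 libraries gave 1744 calls and the 36 gave 1985 (13%, with 6.12% higher and 6.84% lower in KO), with median standard errors of 0.119 in the 27 and 0.118 in the 36. Lists differed in both directions: 6 microglia genes fell in the 27 and 0 in the 36, 2 of the α-ketoglutarate-dependent dioxygenases fell in the 27 and 10 in the 36, and the cholesterol list had 19 that fell in each. The median of the cerebellum list was 0.12 in the 27 and -1.36 in the 36, as the selection sets it.

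Fitted apart, KO against WT gave 224 called genes with dm-αKG (1.46%, with 81 or 0.529% higher and 143 or 0.933% lower, 7 KO and 4 WT libraries) and 419 with vehicle (2.73%, with 250 or 1.63% higher and 169 or 1.1% lower, 9 KO and 7 WT libraries). DESeq2 called 1084 with dm-αKG and 872 with vehicle, so the order of the counts depends on the tool. Region scores of KO and WT differed within treatments. The cortex score averaged 4.45 ± 0.93 in KO-aKG and 5.34 ± 0.53 in WT-aKG, against 5.49 ± 0.30 in KO-Veh and 5.25 ± 0.64 in WT-Veh. The brainstem score, over 2 tested genes, averaged 3.58 ± 1.94 in KO-aKG and 1.16 ± 1.43 in WT-aKG. With vehicle it was 1.04 ± 1.06 in KO and 1.85 ± 2.15 in WT. The part of region make-up in these calls was not tested. The separate fits share no library. The sign was shared by 94.2% of the 224 genes that dm-αKG libraries called and by 386 (92.1%) of the 419 that vehicle libraries called, against 58.7% of all genes. Both fits called 76 genes, 33.9% of the dm-αKG calls and 18.1% of the vehicle calls, and all 76 had the same sign. Across the 419 genes, which are not independent replicates, the log2 fold changes correlated with r = 0.876. Chac1 had a log2 fold change of 2.48 with dm-αKG and 2.92 with vehicle, Slc7a3 2.54 with dm-αKG and 2.52 with vehicle, and Cox6a2 2.77 with dm-αKG and 3.03 with vehicle. The ATF4 list had 21 members raised with dm-αKG and 26 with vehicle, at medians of 0.85 with dm-αKG and 0.87 with vehicle. The cholesterol list had 4 lowered with dm-αKG and 13 with vehicle, at medians of -0.33 with dm-αKG and -0.71 with vehicle.

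The genotype-by-treatment interaction, which tests whether these effects differ, called 0 of 15322 genes by edgeR (smallest adjusted p = 0.353, for Cenpu, with 1915 genes at an unadjusted p under 0.05) and 0 by DESeq2 (2008 at an unadjusted p under 0.05). That does not show that the effects are alike. The counts of the separate fits depend on single libraries. With dm-αKG 25 genes were called without WT-aKG-1, 30 without WT-aKG-2, 21 without WT-aKG-4, 137 without KO-aKG-1, 44 without KO-aKG-2, 700 without KO-aKG-3 and 54 without KO-aKG-6. With vehicle 169 were called without WT-Veh-7, 237 without WT-Veh-8, 270 without WT-Veh-10, 260 without KO-Veh-4, 237 without KO-Veh-5, 644 without KO-Veh-9 and 232 without KO-Veh-10.

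**Figure D5:**
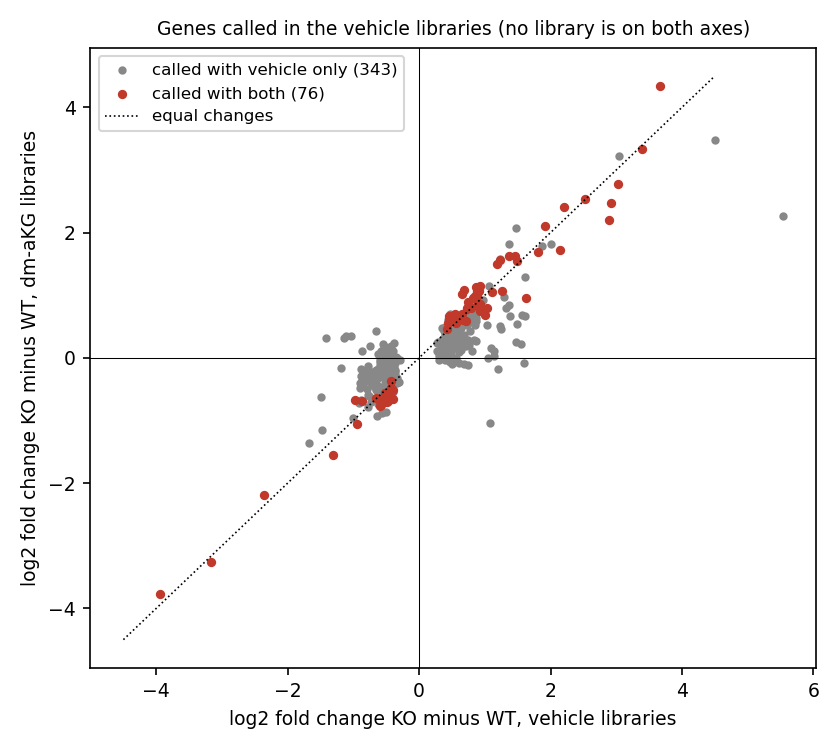
Log2 fold change, KO minus WT, of the 419 genes called with vehicle: vehicle libraries on the horizontal axis, dm-αKG libraries on the vertical axis, with a dotted line where both are equal. Red points are the 76 genes called in both fits; 386 of the 419 lie on the same side of 0 on both axes.

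The 9 left-out libraries, 2 KO against 7 WT, share no library with the 27. They called 12 genes (0.0783%, with 8 or 0.0522% higher and 4 or 0.0261% lower), of which 10 were also called in the 27 with the same sign: Gpt2, Cox6a2, Mt3, Slc7a3, Chac1, Ddit3, Psph, Ostn, Wdr83os and Prdx2-ps1. Of the 1744 genes called in the 27, 80.8% had the same sign in the 9, against 60.5% of all genes. Chac1 had 2.76 in the 27 and 2.65 in the 9, Cox6a2 2.93 in the 27 and 4.0 in the 9, and Gpt2 -3.87 in the 27 and -3.77 in the 9. Of the 106 named genes, 94 had the same sign in the 9 and 12 the opposite one. Nav3 had -1.11 in the 27 and 0.15 in the 9, Gpr153 -0.83 in the 27 and 0.25 in the 9, and Hes5 -0.71 in the 27 and 0.34 in the 9. Others were smaller in the 9, with Fibin at 1.53 in the 27 and 0.22 in the 9, Snhg16 at 1.36 in the 27 and 0.19 in the 9, and Herpud1 at 0.97 in the 27 and 0.27 in the 9. The median of the ATF4 list was 0.87 in the 27 and 0.62 in the 9, that of the cholesterol list -0.54 in the 27 and -0.56 in the 9, and that of the microglia list -0.23 in the 27 and 0.01 in the 9. The interaction of genotype with library class called 0 genes by edgeR (smallest adjusted p = 0.461, 745 at an unadjusted p under 0.05) and 1 by DESeq2, Fam199x. With 2 KO libraries the counts are fragile: 1 gene was called without KO-aKG-7, 3 without KO-Veh-7 and 7 without WT-aKG-7.

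Genes near Gpt2 on chromosome 8 are given by distance, as counts with no test. Within 5 Mb, 21 of 82 tested neighbours were called (25.6%), 16 higher and 5 lower; within 10 Mb, 22.8% of 149 and within 20 Mb, 21.3% of 305, against 11.4% of all genes. Among genes named above, Mt3 lies 8.66 Mb from Gpt2, Herpud1 8.89 Mb, Plvap 14.0 Mb, Ocel1 14.1 Mb, Gdf15 14.9 Mb and Ncan 15.4 Mb. The part of nearby sequence differences in these values was not tested.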

How the data were processed

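Libraries were grouped by their labels, and table columns were matched to libraries by name. Per the submitters' processing notes, reads were handled with featureCounts 2.0.6, SAMtools 1.6, HISAT2 2.2.1, FastQC 0.12.1, Trim Galore 0.6.10 and deepTools, with mm39 and mm10 named as builds. The build behind the counts, any use of strand and any collapse of molecular identifiers are steps the sources used here leave unstated. Deposited by the authors were estimated counts (56184 genes, whole numbers that match their CPM table to within 0.51 of a count) and CPM values of 21637 genes, scaled by the authors to a library total that the file does not give.

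Estimated counts, already whole, were tested with edgeR 4.0.16 (R 4.3.3): TMM scaling, filterByExpr by genotype on the 27 libraries, robust quasi-likelihood fit with treatment and genotype, and Benjamini-Hochberg adjustment over 15322 genes. SE is the log2 fold change divided by the root of F. CPM shown are TMM-scaled over 36 libraries. On simulated data the fit recovered 49 of 50 genes at -1, 40 of 50 at -0.5, 34 of 50 at 0.5 and 48 of 50 at 1, with 6 false calls. Alternatives used DESeq2 1.42.0 and limma 3.58.1 (log2 CPM plus 1 or plus 0.1), no filter, other covariates, a replicate block and leaving out libraries.

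Members and the 47 gene lists were chosen with earlier results of these data known. Named genes are the 4 given markers, the 12 largest called rises and falls at 5 CPM or more with a proper gene name, up to 4 called members with the smallest p per list, and 6 genes called in the 27 but not the 36 libraries. Other genes named were chosen after their values were seen. Coordinates are from GENCODE vM21 (GRCm38). No pair of libraries within a group differed by as little as sampling noise, the chi-square per gene being 7.88 to 179 over 84 pairs. Replicate numbers were not used as pairs. Some members of the lists are counted but not reported here by name.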

Additional observations from a re-analysis of the deposited data

Results flagged for a closer look

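Single libraries stood apart from their group in 15 of 124 group tests (12.1%) over 30 genes and the library totals, by Dixon's criterion. Chance meets it in about 1 of 20 groups of independent values with a normal distribution. The CPM were not checked for that shape and come from the same libraries, so the share does not test for an excess. Agrp reached 79.9 CPM in KO-Veh-9 and 40.6 CPM in KO-aKG-6, and 11.8 CPM in WT-Veh-5. Mt3 was 240 CPM in WT-Veh-3, against at most 106 CPM in the other WT-Veh libraries. Cox6a2 was 4.94 CPM in WT-aKG-5, the lowest of its group, and 15 CPM in WT-Veh-4, the highest. Mthfd2 was highest in KO-aKG-8 (33.5 CPM) and in WT-Veh-2 (12.4 CPM), both among the 4 libraries of lowest cortex score. Gpr153 (31.8 CPM) and Dnajc27 (81.4 CPM) were highest in KO-aKG-5, which also had the smallest library total, 5.77 M counts against 9.48 M for the next in its group. Cyb5r1 was 51 CPM in KO-aKG-1, Ocel1 19.1 CPM in KO-Veh-8, Snn 79.7 CPM in KO-Veh-3 and Plekho2 6.76 CPM in WT-aKG-4, the lowest of that group.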

How the results depend on the processing

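Of 106 named genes, none changed sign under any setting it was fitted in (40 for 105 genes, and 38 for Snhg16, which the CPM table lacks), and 55 stayed past the threshold under all of them. Leaving out single libraries gave 1233 to 1922 calls in the 27 libraries, 21 to 700 with dm-αKG, 169 to 644 with vehicle, 1 to 18 in the 9 left-out libraries, 0 in the interaction with treatment, and 0 in the interaction with library class, where only the 2 left-out KO libraries were dropped in turn. Against 1744, the 27 libraries gave 1111 without a count filter, 2669 with 5 region scores, and 1043 or 1057 by limma on the CPM table with a pseudocount of 1 or 0.1, where 89.4% of calls were higher, against 50.7%, and all genes shifted by 0.112 or 0.126. Without a filter, 240 were called with vehicle, 20 in the 9 libraries and 1287 in all 36, and the same-sign share in the 9 was 83%. DESeq2 called 1084 with dm-αKG, 872 with vehicle, 35 in the 9 and 1 in the class interaction. With the replicate number as a block, 907 genes were called in the 27, 1019 with dm-αKG and 101 with vehicle. The block ended 29 of 106 named calls, among them Sox2 and Fabp7, and gave 2 falls in the radial and Bergmann glia list, 4 in the microglia list, 2 in the fatty acid list, 2 in the synaptic list and 1 among the transaminases. Same-number libraries correlated above 0.1 in 13 of 29 pairs (median r 0.056) and other pairs in 68 of 238 (median -0.016). These values do not settle whether equal numbers mark paired libraries. The labels do not say that they do, and the main fit used no block. The causes of these shifts were not tested. Region make-up differs between libraries and limits all lists of cell types.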
